A study of Saccharomyces cerevisiae with 2 samples.

Results

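The 5S rRNA gene copies of budding yeast are the 6 annotated genes RDN5-1, RDN5-2, RDN5-3, RDN5-4, RDN5-5 and RDN5-6, chosen by name among the 5758 features that had a read in either of 2 CRAC libraries. CRAC links proteins to RNA in living cells with UV light, purifies a tagged protein and sequences cDNA of the RNA fragments left on it. One library came from BY4741 cells (MATa his3 leu2 met15 ura3) that express Sni445 with a C-terminal HTP tag (His6, a TEV protease site and protein A) from its own chromosomal locus (SNI445-HTP::klURA3), and the other from the untagged wild type as negative control. Both cultures grew in YNB medium without tryptophan with glucose to an optical density of 0.6 and were irradiated for 100 seconds, and the cDNA was amplified by 16 cycles of PCR. The comparison asks how much 5S rRNA was recovered with Sni445-HTP and without any tag, and on which gene copies its reads were placed.

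5S rRNA is the smallest RNA of the large ribosomal subunit. It is made by RNA polymerase III with the factors TFIIIA, TFIIIC and TFIIIB, whereas the 18S, 5.8S and 25S rRNAs are cut from 1 long precursor of RNA polymerase I. Its fresh 3′ end is bound by the La protein Lhp1 and trimmed, and the RNA joins the ribosomal proteins Rpl5 and Rpl11 in the 5S RNP before it enters the pre-ribosome. In yeast the 5S gene lies inside each rDNA repeat, on the strand opposite to the precursor gene, and the rDNA is repeated many times in a cell while the reference genome holds few of the repeats. Each count below is therefore a count of reads placed on a reference copy, not of RNA made by that copy.

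In the R64 genome, all 6 genes lie on the plus strand of chromosome XII. RDN5-1 spans 459676 to 459796, between the precursor genes RDN37-1 and RDN37-2, and RDN5-2 spans 468813 to 468931, beyond RDN37-2. The other copies lie farther along, among the ASP3 genes of asparagine breakdown: RDN5-3 from 472465 to 472583, RDN5-4 from 482045 to 482163, RDN5-5 from 485697 to 485815 and RDN5-6 from 489349 to 489469. RefSeq describes RDN5-1 as able to sustain growth as the sole form of 5S rRNA and RDN5-2 to RDN5-5 as variants that cannot. RefSeq also annotates a protein-coding gene on the opposite strand across each of these variants (YLR154C-H, YLR156C-A, YLR157C-C and YLR159C-A). The mature sequences are shown because they set how far a read can be told apart between copies, with the base that differs in capitals.

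RDN5-1: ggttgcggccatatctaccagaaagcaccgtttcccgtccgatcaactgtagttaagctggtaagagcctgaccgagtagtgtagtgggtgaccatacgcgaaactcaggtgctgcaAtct
RDN5-2: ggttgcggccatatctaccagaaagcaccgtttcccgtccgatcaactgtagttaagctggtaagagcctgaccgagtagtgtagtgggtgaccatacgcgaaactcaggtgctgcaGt

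RDN5-6 is identical to RDN5-1 over its 121 nt, although RefSeq calls it a variant, and RDN5-3, RDN5-4 and RDN5-5 are identical to RDN5-2 over their 119 nt. The groups differ by A118G, counted from 1 at the 5′ end of RDN5-1, so the first 117 bases are the same in all copies. Of the 92 windows of 30 nt in RDN5-1, 88 occurred in all 6 copies and 4 in RDN5-1 and RDN5-6 alone. With windows of 50 nt, 68 of 72 occurred in all copies. At 20 nt, 98 of 102 did. No window of 20 nt from RDN5-1 was found in the genome outside the 6 genes. The copies also differ just past their ends, shown here with the last 10 nt of the gene in lower case and the following 20 nt in capitals.

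RDN5-1 end: gctgcaatctTTATTTCTTTTTTTTTTTTT
RDN5-6 end: gctgcaatctTTTTTTTTTTTCCGCGCGCA
RDN5-2 end: gtgctgcagtTGTTTTTTTTTTCGCGCACG

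RDN5-3, RDN5-4 and RDN5-5 end and continue as RDN5-2 does. A run of T serves RNA polymerase III as terminator. It begins at the end of RDN5-6 and is interrupted at first after RDN5-1 and RDN5-2. The identity of RDN5-1 and RDN5-6 runs on for 2 nt past the gene. RDN5-4 and RDN5-5 stay identical for 3650 nt past theirs. The deposited counts are from another genome build, EF2.59, whose ends for these genes were not compared.

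The control library had 12654405 mapped reads and the Sni445-HTP library 21867727. Counted on every feature they overlap, these gave 22960662 and 26984818 sense counts. The snoRNA snR4, which guides acetylation of 18S rRNA, took 1.05% of the sense counts of the control and 47.4% with Sni445-HTP, and snR45, the other acetylation guide, took 0.378% and 32.1%, so the libraries carry the labels' difference and every other RNA shares a much smaller remainder of the Sni445-HTP library. Counts were used under a read length limit of 1000, and those under a limit of 30 were contained in them. With 1 library per strain, no test of the strains was possible, and all 95% intervals are for counting error alone. For reads they are too narrow even for that, because PCR copies of 1 molecule are counted as separate reads. The summed 5S had 25.9 reads per cDNA in the control and 2.96 with Sni445-HTP.

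The 5S copies had 276119 sense reads in the control and 5261 with Sni445-HTP, or 1.20% (1.20 to 1.21) and 0.0195% (0.0190 to 0.0200) of the sense counts. RDN5-1 had 101257 reads in the control and 1485 with Sni445-HTP. RDN5-6 had 106602 and 1495. The copies that share the RDN5-1 sequence thus stood within 1.05 times of each other in the control and 1.01 times with Sni445-HTP. RDN5-2 had 11810 reads in the control and 505 with Sni445-HTP. RDN5-3 had 17120 and 491, and RDN5-4 had 21284 and 759. RDN5-5 had 18046 and 526. All 4 variant copies were below RDN5-1 and RDN5-6 in both libraries, and no variant with Sni445-HTP came near its control count.

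**Figure D1:**
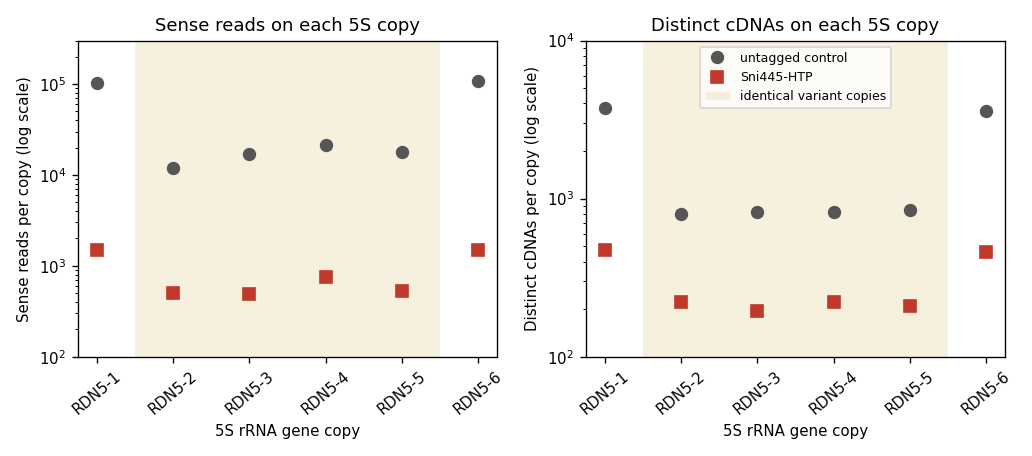
Sense reads (left) and distinct cDNAs (right) on each of the 6 copies on log axes, 1 library per strain, with the identical variant copies RDN5-2 to RDN5-5 shaded. RDN5-1 and RDN5-6 stand above the variants in both libraries and units, and the variants are nearly level in cDNAs (797 to 842 in the control, 195 to 223 with Sni445-HTP).

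The share of the sense counts fell for each copy. The ratio of shares, Sni445-HTP over control, was 0.0162 (0.0158 to 0.0167) for the sum, which is -5.95 on the log2 scale. It was 0.0125 (0.0118 to 0.0131) for RDN5-1 and 0.0119 (0.0113 to 0.0126) for RDN5-6, against 0.0364 (0.0332 to 0.0398) for RDN5-2, 0.0244 (0.0223 to 0.0267) for RDN5-3, 0.0303 (0.0282 to 0.0326) for RDN5-4 and 0.0248 (0.0227 to 0.0270) for RDN5-5. All 6 copies had a share at most 1/4 of the control's, and so did 98.2% of the 911 features with at least 100 control reads, so the copies moved with the background. The median ratio over those features was 0.0103, and 62.1% of them had a lower ratio than the summed 5S. Over sense counts without snR4, snR45 and the intergenic features beside them, the ratio for the sum was 0.540 (0.525 to 0.555), and with TMM factors it was 0.568 (0.552 to 0.583). In cDNAs it was 0.416 (0.396 to 0.438), and in cDNAs within the 30 limit 0.969 (0.877 to 1.07), not separated from 1 at this depth. The size of the fall thus depends on the denominator and on the unit counted. The ratio was under 1 in all 16 alternatives, with that last interval reaching past 1.

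25S rRNA gives a comparison that is free of the library total. RDN25-1 had 3025379 reads in the control and 123528 with Sni445-HTP, and RDN25-2 had 2905694 and 102553. For every 100 reads on 25S there were 4.66 reads on 5S in the control (4.64 to 4.67) and 2.33 with Sni445-HTP (2.26 to 2.39). Per nucleotide of mature length, with 3396 nt for 25S and 121 nt for 5S, this was 131 and 65.3 reads on 5S for every 100 on 25S. In reads of all lengths, 5S thus had more reads per nucleotide than 25S in the control and fewer with Sni445-HTP. It was above 25S in both libraries in reads over the 30 limit (194 and 135 per 100) and in cDNAs (234 and 163), and below it in both in reads within the limit (52.4 and 29.5), so only the order of the libraries held in these 4 units. In cDNAs within the limit the values were 101 and 165. Whether 1 cDNA may be counted on several copies is not known. Sums of cDNAs over 6 copies of 5S and 2 of 25S may therefore be raised unequally, also between the libraries. In reads of all lengths the level relative to 25S differed between the libraries by a ratio of 0.500 (0.486 to 0.514). Against other RNAs of the precursor the ratio was 0.525 (0.510 to 0.540) for 18S, 0.658 (0.631 to 0.686) for 5.8S, listed as RDN58-2 only, and 0.485 (0.472 to 0.498) for the whole precursor.

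The order of the libraries turned only in cDNAs within the 30 limit. The size of the difference changed with the unit and the read length. In distinct cDNAs, which the authors counted per feature for both directions together, 5S had 8.34 per 100 on 25S in the control (8.17 to 8.50) and 5.82 with Sni445-HTP (5.54 to 6.10), a ratio of 0.698 (0.663 to 0.735). Among reads over the 30 limit the values were 6.92 (6.90 to 6.95) and 4.82 (4.66 to 4.98), and among reads within it 1.87 (1.85 to 1.88) and 1.05 (0.998 to 1.10). Among cDNAs within the 30 limit, an alternative chosen after the data were seen, the control had 3.60 (3.37 to 3.85) and Sni445-HTP 5.88 (5.44 to 6.35), so the ratio turned to 1.63 (1.48 to 1.81). That value rests on 906 5S cDNAs in the control and 700 with Sni445-HTP. Over the 30 limit the cDNA ratio was 0.608 (0.570 to 0.649).

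**Figure D2:**
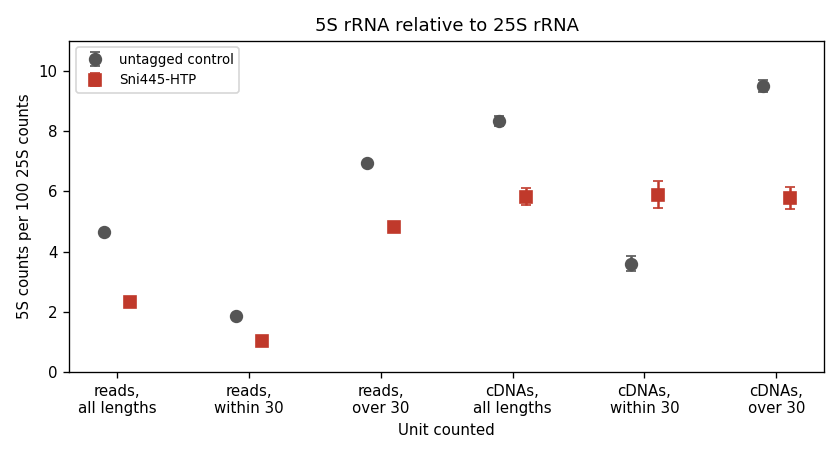
5S counts per 100 counts on 25S for 6 units of counting in both libraries, with 95% intervals for counting error (many are smaller than the points). The control is higher in every unit except cDNAs within the 30 limit, where it has 3.60 and Sni445-HTP has 5.88.

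The copies did not share this ratio. Relative to 25S, RDN5-1 had a ratio of 0.385 (0.365 to 0.405) and RDN5-6 of 0.368 (0.350 to 0.387), so their reads of all lengths fell more than those of 25S. RDN5-2 stood at 1.12 (1.03 to 1.23), RDN5-4 at 0.936 (0.870 to 1.01), RDN5-5 at 0.765 (0.701 to 0.834) and RDN5-3 at 0.752 (0.688 to 0.823). As groups, RDN5-1 with RDN5-6 had 0.376 (0.363 to 0.390) and the variants 0.877 (0.841 to 0.914). In cDNAs the groups had 0.527 (0.492 to 0.565) and 1.08 (0.999 to 1.16). The cDNA ratios within the 30 limit turned above 1, at 1.34 (1.09 to 1.66) for RDN5-1, 1.28 (1.04 to 1.59) for RDN5-6, 1.31 (1.13 to 1.53) for the pair and 1.96 (1.71 to 2.24) for the variants. None of the 6 copies had a share ratio at least 2 times that of 25S, which 9.99% of the 911 features had. At the other end, RDN5-1 and RDN5-6, 2 of the 6, were at or under 1/2 of the ratio of 25S, as were 62.1% of those features, by a rule added after the data were seen. The read length classes moved the variants most: their ratio to 25S was 0.660 (0.617 to 0.706) within the 30 limit and 1.34 (1.27 to 1.42) over it.

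**Figure D3:**
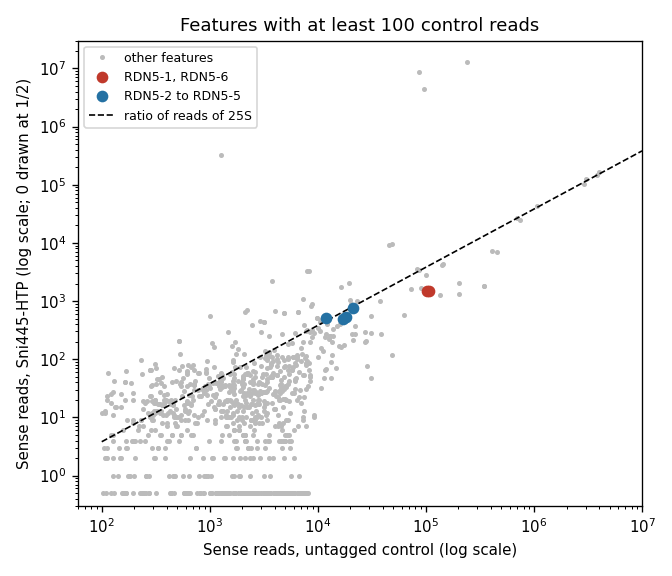
Sense reads in the control against Sni445-HTP on log axes for the 911 features with at least 100 control reads, with features at 0 drawn at 1/2 and the dashed line at the ratio of 25S reads. The variants RDN5-2 to RDN5-5 (blue) lie near the 25S line and RDN5-1 and RDN5-6 (red) below it, all within the spread of the other features.

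The share of RDN5-1 and RDN5-6 among the 5S reads describes the same difference without 25S. Together they held 75.3% (75.1 to 75.4) of the 5S reads of the control and 56.6% (55.3 to 58.0) with Sni445-HTP. In cDNAs they held 69.1% (68.2 to 70.0) and 52.2% (49.9 to 54.6). If every 30 nt window of RDN5-1 were read equally often and each shared window were divided evenly over its copies, RDN5-1 and RDN5-6 would hold 18.1% each and every variant 15.9%. The measured shares were 36.7% (36.5 to 36.9) for RDN5-1 and 38.6% (38.4 to 38.8) for RDN5-6 in the control, and 28.2% (27.0 to 29.5) and 28.4% (27.2 to 29.7) with Sni445-HTP. The variants held from 4.28% (RDN5-2) to 7.71% (RDN5-4) in the control and from 9.33% (RDN5-3) to 14.4% (RDN5-4) with Sni445-HTP. In reads of all lengths, all variants stood under the value of even windows, and those of the Sni445-HTP library stood nearer to it. Within the 30 limit not every point value did so. There, with Sni445-HTP, RDN5-4 held 17.3% (15.5 to 19.3) of the reads and RDN5-2 16.3% (13.6 to 19.2) of the cDNAs. Both point values were above 15.9%, but both intervals reach below it. Each of the other variants stood under 15.9% in the same unit. Windows of 30 nt from RDN5-2 in place of RDN5-1 would give every variant 16.9%. RDN5-5 held 15.5% of the control reads within the limit and 11.3% with Sni445-HTP. Where along the gene the reads lie was not analysed here, since the counts give no positions.

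Read length moved this share in both libraries. Within the 30 limit, RDN5-1 and RDN5-6 held 52.8% (52.4 to 53.2) of the control reads and 44.6% (42.1 to 47.1) of the Sni445-HTP reads. Over the limit they held 80.2% (80.0 to 80.4) and 61.8% (60.2 to 63.3). The cDNAs gave 50.6% (47.2 to 53.9) and 40.7% (37.0 to 44.5) within the limit, and 70.8% (69.9 to 71.7) and 59.7% (56.7 to 62.6) over it. The control was thus higher in each length class and unit, and in each library longer reads fell more often on RDN5-1 and RDN5-6 than short ones.

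**Figure D4:**
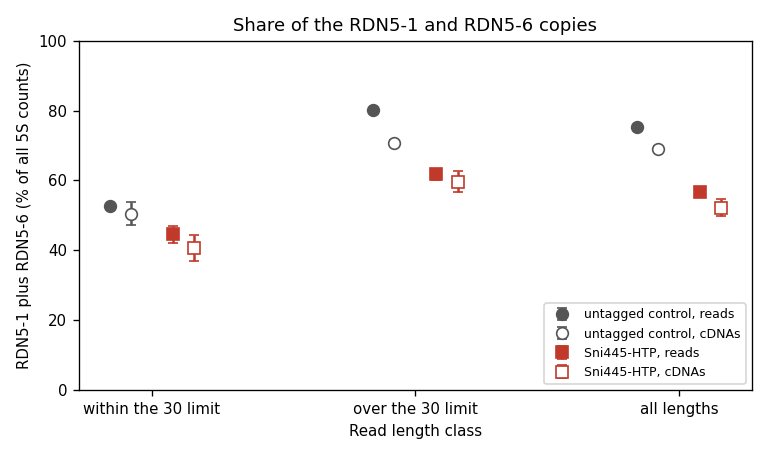
RDN5-1 plus RDN5-6 as a percentage of all 5S counts, by read length class, library and unit (filled points are reads, open points cDNAs), with 95% intervals for counting error. The control points lie above the Sni445-HTP points in each class, from 52.8% against 44.6% of reads within the 30 limit to 80.2% against 61.8% over it.

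Copies of identical sequence show how far the counts can be trusted, since no perfectly matching read inside them can tell them apart. Among the variants, the highest had 1.80 times the reads of the lowest in the control and 1.55 times with Sni445-HTP, although their intervals are narrow. RDN5-4 held 31.2% (30.8 to 31.5) of the variant reads of the control and RDN5-2 17.3% (17.0 to 17.6), where an even division gives 25%. In cDNAs the highest variant had only 1.06 times the lowest in the control and 1.14 times with Sni445-HTP. If 1 cDNA may be counted on several copies, which is not known, the cDNAs of identical copies would be nearly even in any case. Within the 30 limit, reads of RDN5-1 (16227) and RDN5-6 (9985) in the control differed by 1.63 times, while their cDNAs, 231 and 227, differed by 1.02 times. Differences of up to 1.80 times between variants in reads of all lengths, and up to 2.64 times within the 30 limit, therefore occurred between genes of 1 sequence. In reads of all lengths, the lower of RDN5-1 and RDN5-6 had 4.76 times the reads of the highest variant in the control and 1.96 times with Sni445-HTP, both above the spread among the variants. Within the 30 limit the gap ran only from 7707 (RDN5-5) to 9985 reads (RDN5-6) in the control, and with Sni445-HTP it was 1.15 times, under the spreads of 2.64 and 1.53 times among the variants, so the groups are not told apart there by single copies in reads. In cDNAs within the limit the gap was 1.83 times in the control against a spread of 1.22, and 1.21 times with Sni445-HTP against 1.24. The same doubt about the counting of cDNAs applies to these spreads.

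Few cDNAs lay behind many control reads. RDN5-1 had 27.0 reads per cDNA in the control and 3.15 with Sni445-HTP, and RDN5-6 had 29.6 and 3.27. Over the variants the values ran from 14.8 (RDN5-2) to 25.8 (RDN5-4) in the control and from 2.26 (RDN5-2) to 3.43 (RDN5-4) with Sni445-HTP. For 25S they were 46.5 and 7.40. Every copy thus had more reads per cDNA in the control than with Sni445-HTP, as 25S did. The rule by which reads became cDNAs is not given in the sources used here, and whether 1 cDNA may be counted on several copies is not known.

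In reads, the short ones were a smaller part of 5S than of 25S in both libraries. Within the 30 limit were 17.98% (17.8 to 18.1) of the 5S reads of the control and 29.8% (28.6 to 31.1) of those with Sni445-HTP, against 44.9% and 66.1% for 25S. By copy, RDN5-1 had 16.0% (15.8 to 16.3) in the control and 21.1% (19.0 to 23.2) with Sni445-HTP, and RDN5-6 had 9.37% (9.19 to 9.54) and 25.9% (23.7 to 28.2). The variants did not move one way in reads. RDN5-2 had 24.7% (23.9 to 25.5) and 45.0% (40.6 to 49.4) and RDN5-3 30.2% (29.5 to 30.9) and 39.1% (34.8 to 43.6), whereas RDN5-4 had 35.9% (35.3 to 36.6) and 35.8% (32.4 to 39.4) and RDN5-5 had 42.7% (42.0 to 43.4) and 33.8% (29.8 to 38.1). In cDNAs the 6 copies had between 6.16% (RDN5-1) and 15.0% (RDN5-4) within the limit in the control and between 30.2% (RDN5-6) and 51.1% (RDN5-2) with Sni445-HTP, so the libraries did not overlap. A higher percentage with Sni445-HTP was also found in 91.8% of the 98 features with at least 100 cDNAs in both libraries, and summed over the cDNA counts of all features it was 18.9% without the tag and 37.5% with it, so the copies moved as most features did. For 25S the cDNA values were 19.7% (19.5 to 19.9) and 39.0% (38.4 to 39.5), so the 5S sum, at 8.51% (7.99 to 9.06) and 39.4% (37.1 to 41.7), was under 25S in the control and not separated from it by the intervals with Sni445-HTP. The groups lay on opposite sides of 25S with Sni445-HTP. RDN5-1 plus RDN5-6 had 30.7% (27.8 to 33.8) and the variants 48.9% (45.5 to 52.3).

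**Figure D5:**
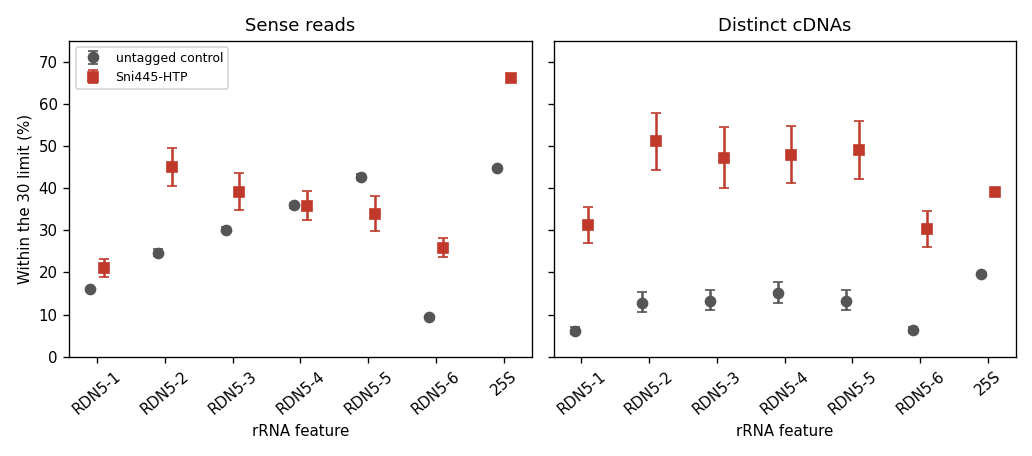
Percentage of sense reads (left) and distinct cDNAs (right) within the 30 limit for each copy and for 25S in both libraries, with 95% intervals for counting error. In cDNAs every copy is higher with Sni445-HTP (30.2% to 51.1%) than in the control (6.16% to 15.0%), whereas in reads RDN5-5 is lower.

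Reads on the opposite strand of the copies were nearly lacking. RDN5-1 had 4 antisense reads in the control, and no other copy had any in either library. With Sni445-HTP 0 antisense reads stood beside 5261 sense reads, which allows up to 0.0570 per 100 by the floor of 3 counts.

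Other transcripts of RNA polymerase III did not share 1 ratio. SCR1, the RNA of the signal recognition particle, had 73324 reads in the control and 1613 with Sni445-HTP, a ratio of shares of 0.0187 (0.0178 to 0.0197) beside the 0.0162 of 5S. The tRNAs as a class had 796480 and 16283 reads, with 284 listed genes, and a ratio of 0.0174 (0.0171 to 0.0177). RPR1, the RNA of RNase P, had 1085 and 159 reads, a ratio of 0.125 (0.105 to 0.147). SNR52, a box C/D snoRNA, had 1479 and 299 reads, a ratio of 0.172 (0.151 to 0.195). SNR6, the U6 snRNA of the spliceosome, had 0 reads in the control and 389 with Sni445-HTP. With 3 reads in place of its 0, the ratio of shares was 110. The same step gave 51.9 in reads within the 30 limit and 53.0 in reads over it. In cDNAs, 0 and 93, it gave 77.3, and 21.7 within the limit. The values in reads are not firm lower bounds, because PCR copies of 1 molecule are counted as separate reads. The 5S rRNA, SCR1 and the tRNAs therefore lay between 0.0162 and 0.0187, all below 25S at 0.0324, while RPR1, SNR52 and SNR6, with few or no control reads, stood above it. The place of the tRNAs turned with read length, since within the 30 limit their ratio was 0.0450 (0.0440 to 0.0460), above the 0.0350 of 25S. In cDNAs the ratios were 0.416 (0.396 to 0.438) for 5S, 0.927 (0.837 to 1.03) for SCR1, 0.530 (0.515 to 0.546) for the tRNAs and 0.597 (0.589 to 0.604) for 25S, so SCR1 then stood above 25S.

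Of features other than rRNA with at least 1000 control and 100 Sni445-HTP reads, 120 in number, those with the log2 ratio nearest to the summed 5S were SNR13, a box C/D snoRNA, TRS31, tK(UUU)K, a lysine tRNA, TDH2, a glyceraldehyde-3-phosphate dehydrogenase, and SNR86, an H/ACA snoRNA. Their ratios ran from 0.0155 (SNR86) to 0.0165 (SNR13) over the 2 libraries. TRS31, which encodes a subunit of the TRAPP complex of vesicle transport, had the same counts as SNR13, 12926 and 251, in both libraries, so these are not separate likenesses. Within the 30 limit the ratio of tK(UUU)K was 0.846 while that of the 5S sum was 0.0197, so its value was not like that of 5S there. No interval was computed for 0.846. It rests on at most 109 reads with Sni445-HTP, the count of tK(UUU)K at all lengths.

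The mRNAs of the proteins that make and carry 5S rRNA had at most 56 reads each with Sni445-HTP. From a list of 18 genes for 5S transcription, La binding and trimming, and the 5S RNP, 5 had reads in the control and 4 with Sni445-HTP. Of the 5758 features with a read in either library, 1419 had sense reads in the control and 3167 with Sni445-HTP. That total leaves out features without a read, whereas the 18 genes include some, so these counts do not share a base. RPL5, whose protein binds 5S rRNA directly, had 5461 reads in the control and 56 with Sni445-HTP, a ratio of 0.00873 (0.00658 to 0.0113). RPL11A, one of the genes for the other ribosomal protein of the 5S RNP, had 3154 and 19, and RPL11B, its near-identical paralog, had 376 and 20, so reads may be split between them. TFC3 and TFC8, which encode subunits of TFIIIC, had 3377 and 3318 reads in the control and 0 with Sni445-HTP. The reads of TFC3 came from 25 cDNAs and those of TFC8 from 51. SPT15, the TATA-binding protein, had 0 and 9. These 5 genes with control reads all had a share at most 1/4 of the control's, which 98.2% of the features had. PZF1, which encodes TFIIIA, and LHP1, RNH70, BRF1, BDP1, TFC1, TFC4, TFC6, TFC7, SYO1, RPF2 and RRS1 were not listed with a read.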

How the data were processed

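The authors separated the 2 CRAC libraries by an index with 3 random bases (1 mismatch allowed), aligned reads with Novoalign 3.09.00, placing a read with several matches at random, and counted with pyReadCounters. The file headers name version 1.4.4 of its counting module. The deposited values are raw read counts per feature, in sense and antisense, and counts of distinct cDNAs, under length limits of 1000 and 30. The labels name a MiSeq and the methods a NextSeq2000. The random placement divides reads of identical copies between them, so single copies are less certain than sums.

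Computed with Python 3.11.15, numpy 2.4.6 and scipy 1.17.1 were shares of the sense counts with exact Clopper-Pearson 95% intervals, ratios of shares with exact conditional binomial intervals, and ratios relative to 25S with log intervals. TMM factors came from edgeR 4.0.16 in R 4.3.3, and plots from matplotlib 3.10.9. Zero counts took a floor of 3. Reads over the 30 limit are the difference of both limits. The background used features with at least 100 control reads, set against a 4-fold lower share and 2 times or 1/2 of the ratio of 25S. For short cDNAs it used features with at least 100 cDNAs in both libraries, a rule added after the data were seen. Scripts were tested on simulated counts. Sequences and places are from RefSeq R64, matched by gene name, for all 6 copies.

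Named are the 6 copies, the rRNAs compared with them, SCR1, RPR1, SNR6 and SNR52, the listed 5S genes with a read (those without one are named once), the 5 features nearest in log2 ratio, and snR4 and snR45 as a check. The members, lists and tests were chosen with earlier results of these data known. Alternatives were other limits, units, denominators, scalings, rRNAs and sets of copies.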

Additional observations from a re-analysis of the deposited data

How the results depend on the processing

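No replicate exists to leave out, and counting error is the only error given. No paired analysis was possible because each strain has 1 library and no test was run. Depth limits the Sni445-HTP copies most, where a variant has 491 to 759 reads.

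The share ratio of 5S, 0.0162, was 0.0197 within the 30 limit, 0.0187 over it, 0.416 in cDNAs, 0.0140 with antisense counts added, 0.0110 over mapped reads, 0.540 without snR4, snR45 and their neighbours, 0.0105 with overlapping rRNA counted once, 0.658 with median-ratio size factors, 0.568 with TMM factors, and 0.0150 for RDN5-1 plus RDN5-2 or 0.0171 for RDN5-3 to RDN5-6. Alternatives added after the data were seen gave 0.969 in cDNAs within the 30 limit (interval 0.877 to 1.07), 0.358 in cDNAs over it, 0.0122 for RDN5-1 plus RDN5-6 and 0.0284 for RDN5-2 to RDN5-5. It was below 1 in all 16.

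5S per 100 25S, 4.66 in the control and 2.33 with Sni445-HTP (ratio 0.500), was 1.87 and 1.05 (0.562) within the 30 limit, 6.92 and 4.82 (0.696) over it, and 8.34 and 5.82 (0.698) in cDNAs. Against RDN25-1 alone it was 9.13 and 4.26 (0.467), against 18S 19.4 and 10.2 (0.525), against RDN58-2 194.6 and 128.0 (0.658), and against the precursor 3.49 and 1.69 (0.485). RDN5-1 plus RDN5-2 gave 1.91 and 0.880 (0.462), and RDN5-3 to RDN5-6 gave 2.75 and 1.45 (0.526). Of the added alternatives, cDNAs within the 30 limit gave 3.60 and 5.88 and turned the ratio to 1.63, for which the cause was not tested. The other added ones gave 9.50 and 5.78 (0.608) in cDNAs over the limit, 3.50 and 1.32 (0.376) for RDN5-1 plus RDN5-6, and 1.15 and 1.01 (0.877) for RDN5-2 to RDN5-5. The ratio was below 1 in 13 of 14 alternatives.

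The share of RDN5-1 plus RDN5-6, 75.3% in the control and 56.6% with Sni445-HTP, was 52.8% and 44.6% within the 30 limit, 80.2% and 61.8% over it, and 69.1% and 52.2% in cDNAs. The percentage of 5S within the 30 limit, 17.98% and 29.8%, was 8.51% and 39.4% in cDNAs and 16.9% and 27.1% for RDN5-1 plus RDN5-2. Reads per cDNA, 25.9 and 2.96, were 54.8 and 2.24 within the limit. Of 36 alternative values for the share of a single copy, 34 fell outside the counting interval of the main value, which is too narrow for reads. The interval of an alternative can still reach the main value. For RDN5-1 with Sni445-HTP the cDNAs gave 26.5% (24.5 to 28.6) beside 28.2% in reads.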

Other observations

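Features on the opposite strand carried the copies' reads as antisense counts. INT_0_5818 had 101257 antisense reads in the control and 1485 with Sni445-HTP, exactly the sense counts of RDN5-1, and INT_0_5822 matched RDN5-2 with 11810 and 505. With Sni445-HTP the counts of INT_0_5824, INT_0_5829, INT_0_5832 and INT_0_5835 equalled those of RDN5-3 (491), RDN5-4 (759), RDN5-5 (526) and RDN5-6 (1495).

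In the control, 4 of the 6 exceeded the copy. INT_0_5829 did so by 6 reads, with 21290 beside 21284 on RDN5-4. INT_0_5824 had 18781 antisense reads beside 17120 on RDN5-3, and the excess of 1661 is the sense count of INT_0_5823. For RDN5-5, INT_0_5832 exceeded the copy by 1425, the sense count of INT_0_5831, and for RDN5-6, INT_0_5835 exceeded it by 1123, that of INT_0_5834. This sum did not hold with Sni445-HTP, where the features on the opposite strand equalled the copies alone. The sense reads of INT_0_5823, INT_0_5831 and INT_0_5834 in the control came from 37, 32 and 32 cDNAs, and with Sni445-HTP they were 6, 7 and 8 reads. Whether these are reads beyond an end of the 5S gene was not tested, since the places of the intergenic features in EF2.59 were not analysed here.

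The spacer feature NTS1-2 had 83187 antisense reads in the control, 82.2 for every 100 reads on RDN5-1 (95% binomial interval 81.9 to 82.4). With Sni445-HTP it had 819, 55.2 for every 100 (52.6 to 57.7). Within the 30 limit the values were 67.7 (67.0 to 68.5) and 45.4 (39.8 to 51.1). These intervals treat the NTS1-2 counts as a part of the RDN5-1 reads, and for separate counts they would be wider. The part of RDN5-1 reads in the NTS1-2 counts was not tested.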
